A study of Mus musculus with 100 samples.

Results

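The change of gene expression in wild-type mouse cortex from the end of gestation (embryonic day E18.5) to the day of birth (P0) was examined in the 16 wild-type libraries of these ages, out of 100 libraries of a bulk RNA sequencing series. They came from 9 of the 53 animals of the series, 5 at E18.5 and 4 at P0, chosen by their age and genotype labels, and the libraries of an animal were summed. All were labelled WT, with both Myt1l alleles intact and no treatment stated, and their strain is labelled C57BL/6J, whereas the study's methods give C57BL/6N for the mice with which the line was made and bred. The study was made to follow a Myt1l frameshift allele, a 7 bp CRISPR/Cas9 deletion in exon 6. Heterozygous (HET) animals of that line served here as a second set of animals of the same ages. HET animals and animals with both alleles mutated (HOM) also entered a joint fit with the wild-type animals. That fit tested whether the change with age differed between genotypes. Whole cortex was taken at E18.5 and prefrontal cortex at P0, so that age and dissection cannot be told apart in any value below. Only the animals of an age are replicates, and the labels do not say from which litters they came.

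Birth separates the final days of cortical neurogenesis from the first days of glial expansion. In this window radial glia, the stem cells that line the ventricle, turn from making neurons to making astrocytes and oligodendrocyte precursors, and the youngest neurons leave the intermediate progenitor stage, settle in layers, extend axons and form synapses. The animal meanwhile exchanges the placenta for lungs and milk, so oxygen, glucose, hormone and lipid supply all change. The developing brain makes its own cholesterol from acetyl-CoA, since lipoproteins do not cross the blood-brain barrier.

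The 9 animals were spread over sequencing batches 1 and 3, as the labels name them, and sex followed age and batch exactly. The E18.5 animals were 2 females of batch 1 (E18.5_WT_449 and E18.5_WT_456) and 3 males of batch 3 (E18.5_WT_709, E18.5_WT_732 and E18.5_WT_735), and the P0 animals were 2 males of batch 1 (P0_WT_309 and P0_WT_311) and 2 females of batch 3 (P0_WT_674 and P0_WT_704). Values of single animals are always given in that order. A difference of the age effect between batches therefore cannot be told apart from a difference between the sexes. Depth was 31.6 to 56.0 Mreads of counted reads per animal, except in P0_WT_309 and P0_WT_311, which had 123 and 145 Mreads from 1 library each. On the first principal component, with 33.6% of the variance, the E18.5 animals lay between −46.1 and −11.0 and the P0 animals between 15.5 and 45.2. E18.5_WT_456 lay nearest to the P0 animals on it and farthest from all others on the second component (58.9, with 27.7% of the variance).

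The labelled tissue was checked against marker genes. Tbr1, a transcription factor of early-born cortical neurons, was read at 197 to 351 CPM (read counts scaled to a fixed library size, with TMM factors) in the 9 animals, and Bcl11b, a factor of cortical neurons that project to the spinal cord, at 141 to 343 CPM. Mog of mature myelin and Ckm of skeletal muscle did not exceed 0.0655 and 0.0555 CPM, and Folr1 and Kcnj13 of the choroid plexus did not exceed 0.282 and 0.0589 CPM. E18.5_WT_456 stood apart in some transcripts of neighbouring regions. Gbx2 and Tcf7l2, transcription factors of the thalamus, stood at 4.10 and 16.9 CPM in it, against 0.0555 to 0.285 and 0.627 to 2.13 CPM in the other 4, whereas the thalamic markers Lhx9 and Prkcd were not highest in it. Their part in the results was not tested, and the counts of some lists are given with and without this animal.

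Genes were compared by edgeR's quasi-likelihood test with batch as covariate and were called where the p adjusted by Benjamini and Hochberg lay under 0.05. Of 17515 genes tested, 2629 were called (15%), of which 1310 were higher at P0 (7.48%) and 1319 were lower (7.53%). The median log2 fold change over all genes tested was 0.004, and a fold change is always that of P0 over E18.5, with its standard error (SE). Means are over 5 E18.5 and 4 P0 animals, ± SD. For 1099 genes (6.27%) every P0 animal lay above every E18.5 animal, and for 1223 (6.98%) every P0 animal lay below. Groups of genes are given below by the number of members called, read against 7.48% for rises and 7.53% for falls. In bulk tissue, fewer cells of a type and less RNA per cell cannot be told apart. The count over all genes was 1293 without E18.5_WT_449, 1483 without P0_WT_311, 1582 without P0_WT_674, 1660 without E18.5_WT_735 and 1665 without P0_WT_309, so many counts of few members are given with their range over the fits that leave out 1 animal.

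Genes of cholesterol synthesis fell together. Of 20 genes of the pathway and its regulation, all of which were tested, 20 were lower at P0 and 0 were higher, with a median log2 fold change of −0.73, against 7.53% and 0.004 over all genes. The medians within batch 1 and batch 3 were −0.83 and −0.69. Leaving out any 1 animal left 18 to 20 of them called lower.

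Hmgcs1 (chr13:119690379-119708260, mm10), the synthase that commits acetyl units to the mevalonate pathway, was read at 917, 824, 799, 831 and 834 CPM at E18.5 and 410.2, 408, 467 and 417 CPM at P0. The groups did not overlap, and the mean went from 841 ± 44.6 to 425 ± 27.7 CPM (log2 fold change −0.98 ± 0.08 SE, adjusted p = 0.000688). Mvd, which decarboxylates mevalonate to the isoprene unit, showed the largest fall of the list, with 71.4, 65.8, 93.5, 100.5 and 105 CPM at E18.5 and 35.6, 29.8, 41.0 and 36.1 CPM at P0. Its highest P0 animal lay well below its lowest E18.5 animal (log2 fold change −1.23 ± 0.10 SE, adjusted p = 0.000688).

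Enzymes further along the pathway fell too. Idi1, which isomerises the isoprene unit, changed from 25.5 ± 5.66 to 12.8 ± 1.34 CPM (log2 fold change −1.001 ± 0.14 SE, adjusted p = 0.00252), and Nsdhl, a demethylating enzyme of the sterol ring, from 64.2 ± 3.60 to 30.6 ± 4.07 CPM (log2 fold change −1.06 ± 0.10 SE, adjusted p = 0.000688). Stard4, which carries sterols within the cell, fell from 40.9 ± 4.79 to 21.1 ± 2.50 CPM (log2 fold change −0.95 ± 0.11 SE, adjusted p = 0.00173). Srebf2, the transcription factor that switches these genes on when sterols are low, was itself read at 378, 338, 371, 411 and 407 CPM at E18.5 and 259, 229, 264 and 267 CPM at P0 (log2 fold change −0.57 ± 0.08 SE, adjusted p = 0.00244).

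**Figure D1:**
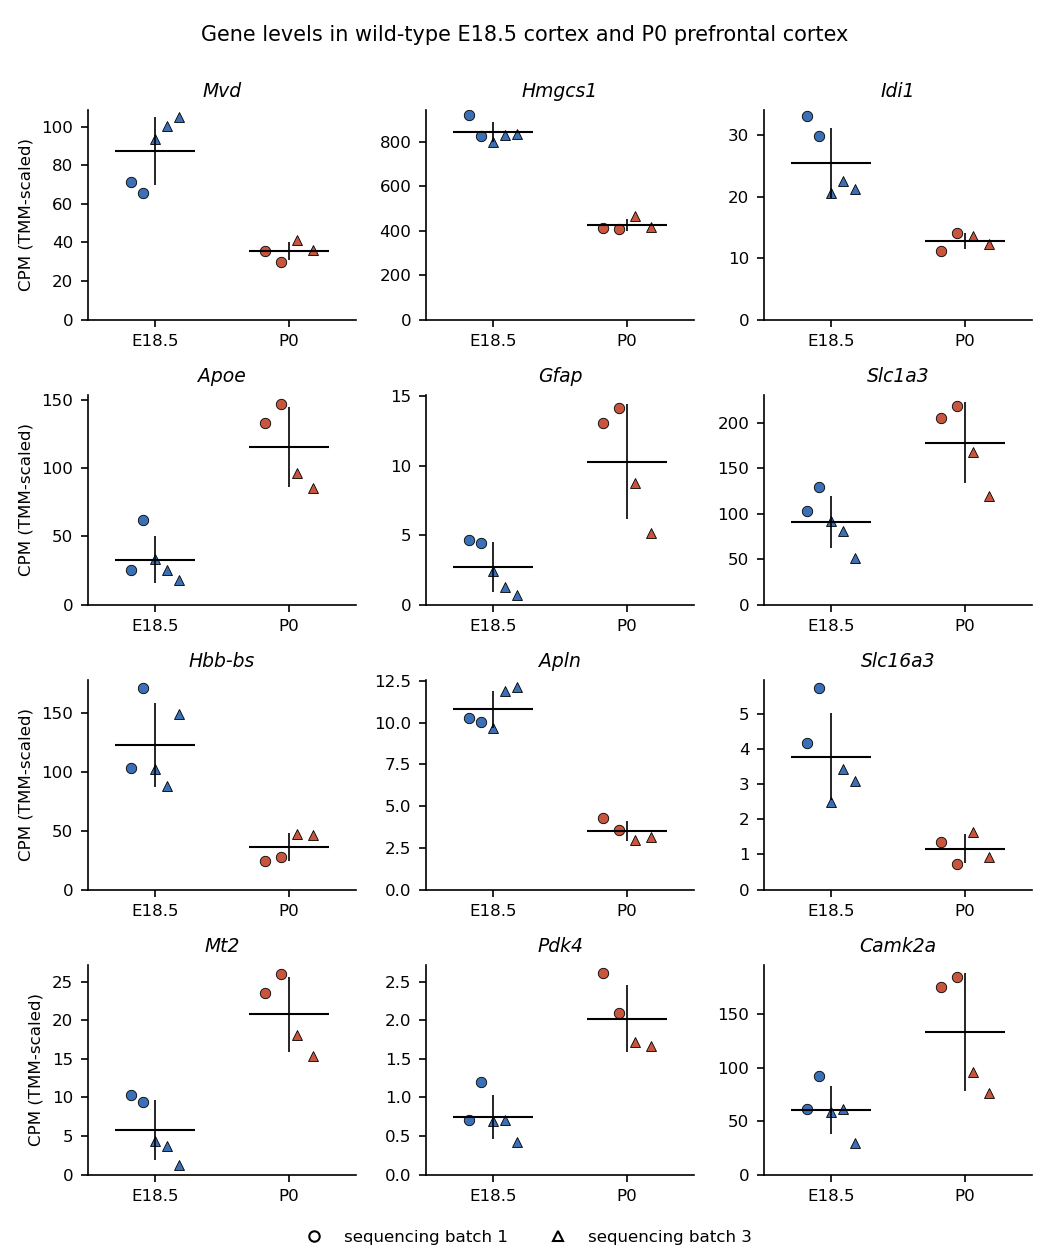
Levels of 12 genes in CPM (vertical axes, linear from 0) in the 5 E18.5 and 4 P0 wild-type animals, with circles for sequencing batch 1, triangles for batch 3, and lines for the mean ± SD. Sterol, globin, Apln and Slc16a3 levels lie lower at P0 and Apoe, Gfap, Mt2 and Pdk4 levels higher, without overlap, while Camk2a overlaps between batches.

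The sequence before the start of these genes is shown because sterol genes share the CCAAT box there. Windows of 250 bases before the start, from RefSeq on GRCm38.p6, were found for 13 of the 20 sterol genes. No window was at hand for the other 7. The CCAAT box (CCAAT, or ATTGG on the other strand), which NF-Y binds next to the sterol-regulated factor SREBP, occurred in 13 of 13, against 40.3% of the windows of 12051 genes tested. One form of the sterol regulatory element (TCACNCCAC, or GTGGNGTGA on the other strand) occurred in 1 of 13, against 1.23% of all windows. The windows of Hmgcs1 (chr13:119690101-119690350, plus strand), Mvd (chr8:122443423-122443672, minus strand) and Idi1 (chr13:8885356-8885605, plus strand) are given 5′ to 3′ as examples, with the CCAAT boxes in capitals and, in Hmgcs1, the sterol regulatory element TCACCCCAC as well. The motifs do not overlap each other, and a match is a description of the letters only.
Hmgcs1: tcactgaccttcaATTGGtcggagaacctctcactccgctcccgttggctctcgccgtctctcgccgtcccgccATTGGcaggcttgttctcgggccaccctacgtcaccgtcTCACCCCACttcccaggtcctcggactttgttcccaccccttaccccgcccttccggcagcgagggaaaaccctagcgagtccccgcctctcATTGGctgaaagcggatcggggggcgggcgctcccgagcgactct
Mvd: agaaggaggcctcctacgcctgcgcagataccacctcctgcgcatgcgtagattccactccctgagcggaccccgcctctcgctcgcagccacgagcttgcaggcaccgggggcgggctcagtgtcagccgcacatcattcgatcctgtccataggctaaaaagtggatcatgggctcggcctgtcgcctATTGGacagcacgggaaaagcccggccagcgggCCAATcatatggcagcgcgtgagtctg
Idi1: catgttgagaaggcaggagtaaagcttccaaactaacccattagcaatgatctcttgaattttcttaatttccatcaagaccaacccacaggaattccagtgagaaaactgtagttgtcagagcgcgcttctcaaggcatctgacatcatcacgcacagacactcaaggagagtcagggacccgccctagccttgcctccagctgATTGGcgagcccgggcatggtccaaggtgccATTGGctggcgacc

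Part of the genes that low oxygen induces were lower at P0. Of 28 listed genes of the hypoxia response and glycolysis, 27 were tested, of which 11 fell, 0 rose and 16 were not called, with a median of −0.27. The medians were −0.31 in batch 1 and −0.26 in batch 3, and 5 to 12 members fell when 1 animal was left out, with 5 without P0_WT_311 and 7 without E18.5_WT_709. The age effect differed between batches for 7 of the 27 members, against 12.5% of all genes. In batch 1 alone 8 fell and 2 rose, and in batch 3 alone 7 fell and 1 rose. The summed level of the list was 2156 to 2321 CPM in the E18.5 animals and 1680 to 1850 CPM in the P0 animals.

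Apln (chrX:48025146-48034853, mm10), a peptide of endothelial tip cells that low oxygen induces and not a member of that list, was among the largest falls of all genes. It was read at 10.3, 10.02, 9.65, 11.9 and 12.1 CPM at E18.5 and 4.31, 3.58, 2.97 and 3.17 CPM at P0, and the groups did not overlap (log2 fold change −1.62 ± 0.15 SE, adjusted p = 0.000688). Slc16a3, which exports lactate from glycolytic cells, went from 3.79 ± 1.24 to 1.16 ± 0.410 CPM (log2 fold change −1.72 ± 0.29 SE, adjusted p = 0.00554). Adm, the vasodilator adrenomedullin, was read at 2.33, 2.35, 2.06, 2.19 and 1.98 CPM at E18.5 and 1.65, 0.878, 1.001 and 0.362 CPM at P0 (log2 fold change −1.23 ± 0.30 SE, adjusted p = 0.0223). P0_WT_704 was the lowest of these and P0_WT_309 lay nearest to the E18.5 animals. Ankrd37 was read at 7.26, 8.05, 6.58, 5.70 and 5.24 CPM at E18.5 and 2.69, 1.96, 3.92 and 4.35 CPM at P0, with no overlap (log2 fold change −1.06 ± 0.24 SE, adjusted p = 0.0159).

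Vegfa, the endothelial growth factor, fell from 83.2 ± 11.7 to 53.5 ± 13.7 CPM (log2 fold change −0.65 ± 0.18 SE, adjusted p = 0.0351), and its receptors Flt1 and Kdr fell as well (log2 fold changes −0.48 ± 0.14 and −0.47 ± 0.14 SE, adjusted p = 0.0473 and 0.0494). Of the glycolytic enzymes, Pfkl was read at 109, 132, 127, 132 and 125 CPM at E18.5 and 79.2, 73.9, 85.5 and 70.6 CPM at P0, without overlap (log2 fold change −0.69 ± 0.09 SE, adjusted p = 0.0021). Tpi1, Ldha and Eno1 had log2 fold changes of −0.61, −0.45 and −0.43 (adjusted p = 0.00947, 0.00961 and 0.0231). Slc2a1, the glucose transporter of the blood-brain barrier, was called lower (log2 fold change −0.49 ± 0.14 SE, adjusted p = 0.041), although E18.5_WT_456, at 38.6 CPM, lay within the P0 values of 35.2 to 42.6 CPM. The calls of Flt1, Kdr and Slc2a1 were all lost without E18.5_WT_449, E18.5_WT_709, E18.5_WT_732, E18.5_WT_735, P0_WT_311 or P0_WT_674.

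The hypoxia response element (ACGTGC, or GCACGT on the other strand) occurred in the window of 11 of the 23 tested list members that had one (47.8%), and in 4 of 10 of the members called lower (40%: Ankrd37, Bnip3, Ldha and Slc2a1), against 7.91% of all windows. The window of Ankrd37 (chr8:45999851-46000100, minus strand) is shown as the example with the largest fall among these 4, with its match in capitals.
Ankrd37: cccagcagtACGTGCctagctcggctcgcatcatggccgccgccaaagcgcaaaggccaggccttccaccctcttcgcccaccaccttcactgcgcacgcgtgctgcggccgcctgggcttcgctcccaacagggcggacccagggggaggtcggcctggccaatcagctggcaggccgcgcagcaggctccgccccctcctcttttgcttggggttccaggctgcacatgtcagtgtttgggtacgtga

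Haemoglobin transcripts fell, and the erythroid list had the lowest median of the 43 gene lists. Of 17 erythroid genes 7 were tested, and 5 of these fell, with a list median of −1.67. The other 10, among them the embryonic globins, were too low to test. Hbb-bs (chr7:103826534-103828096, mm10), an adult β-globin, was read at 103, 171, 102, 88.5 and 149.6 CPM at E18.5 and 24.6, 27.8, 47.1 and 46.2 CPM at P0. Every P0 animal lay below every E18.5 animal (log2 fold change −1.78 ± 0.25 SE, adjusted p = 0.00281). Hba-a1, an adult α-globin, followed, from 68.5 ± 18.7 to 21.7 ± 6.44 CPM (log2 fold change −1.67 ± 0.22 SE, adjusted p = 0.00215). The globin copies Hba-a1 and Hba-a2, and Hbb-bs and Hbb-bt, are nearly identical, and how reads were divided between them is not known. Alas2, the haem synthesis enzyme of red cells, has no such copy and went from 5.76 ± 1.90 to 2.30 ± 0.861 CPM (log2 fold change −1.28 ± 0.17 SE, adjusted p = 0.00252). Fech, the last enzyme of haem synthesis, which all cells use, was the member that rose (log2 fold change 0.35 ± 0.09 SE, adjusted p = 0.0244).

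Astrocyte genes rose. Of 26 listed markers 25 were tested, 20 were higher at P0 (against 7.48% of all genes) and 0 were lower, with a median of 0.83. The medians were 0.81 in batch 1 and 0.85 in batch 3, and 10 to 18 members rose when 1 animal was left out. The lowest counts were 10 without P0_WT_674, 11 without E18.5_WT_449 or P0_WT_311, and 13 without P0_WT_309.

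Apoe (chr7:19696109-19699188, mm10), the lipid carrier that astrocytes secrete, was read at 25.0, 62.0, 33.5, 25.6 and 17.8 CPM at E18.5 and 133, 147, 96.3 and 85.6 CPM at P0. Within the E18.5 group E18.5_WT_456 was the highest, yet all P0 animals lay above it (log2 fold change 1.76 ± 0.24 SE, adjusted p = 0.00252). Gfap (chr11:102887336-102900912, mm10), the intermediate filament of astrocytes, was read at 4.65, 4.45, 2.41, 1.29 and 0.726 CPM at E18.5 and 13.1, 14.1, 8.73 and 5.16 CPM at P0, again without overlap (log2 fold change 1.92 ± 0.28 SE, adjusted p = 0.00347). Aqp4, the water channel of their end-feet, was read at 3.98, 12.8, 5.16, 3.03 and 1.32 CPM at E18.5 and 12.9, 16.7, 14.1 and 8.54 CPM at P0. E18.5_WT_456 lay among the P0 animals here, and the gene was higher at P0 within each batch (log2 fold change 1.36 ± 0.41 SE, adjusted p = 0.048).

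The glutamate transporters Slc1a3 and Slc1a2, which clear the transmitter from synapses, rose (log2 fold changes 0.91 ± 0.16 and 0.92 ± 0.19 SE, adjusted p = 0.00645 and 0.0121). Kcnj10, a potassium channel of astrocytes that was listed with the channel genes, was read at 12.4, 12.6, 10.6, 10.5 and 8.05 CPM at E18.5 and 25.6, 25.9, 19.9 and 17.9 CPM at P0 and did not overlap (log2 fold change 0.999 ± 0.11 SE, adjusted p = 0.00129). Gja1, the gap junction protein, Aldoc, a glycolytic enzyme of astrocytes, and Aldh1l1, an enzyme of folate metabolism, had log2 fold changes of 0.90, 0.86 and 0.97 (adjusted p = 0.0334, 0.0194 and 0.0323). Agt, angiotensinogen, was close to absent at E18.5, with 0, 0.800, 0.0633, 0.0562 and 0.0989 CPM at E18.5 and 1.15, 3.50, 3.53 and 1.06 CPM at P0. Its fold change rests on few reads (log2 fold change 3.55 ± 0.80 SE, adjusted p = 0.0165). Itih3 rose as well, from 0.183 ± 0.222 to 1.498 ± 0.445 CPM (log2 fold change 3.00 ± 0.47 SE, adjusted p = 0.00413). S100b, a calcium-binding protein of more mature astrocytes, was not called (log2 fold change −0.20 ± 0.21 SE, adjusted p = 0.544).

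**Figure D2:**
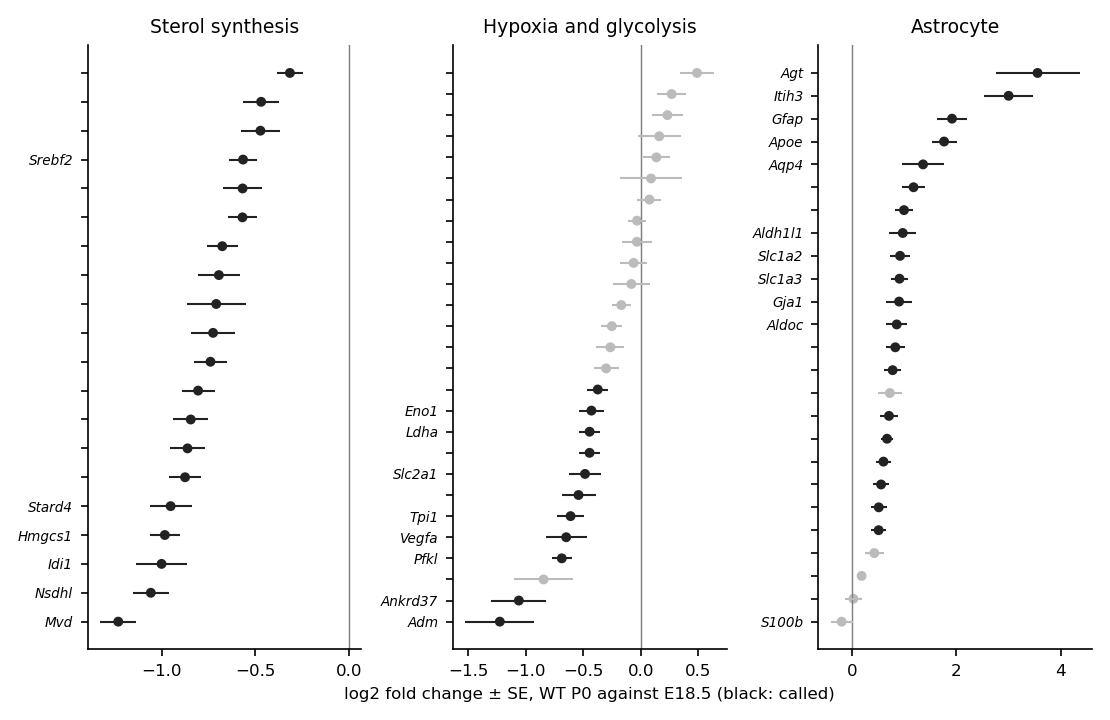
Log2 fold change of P0 over E18.5 (horizontal axes, bars are ± SE) for each tested member of the lists of sterol synthesis, hypoxia and glycolysis, and astrocytes, with called genes in black, the others in grey, and labels for the genes described in the text. All 20 sterol genes lie left of 0, 11 hypoxia and glycolysis genes are black on the left, and 20 astrocyte genes are black on the right.

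Radial glial genes went both ways. Of 22 genes 3 rose (2 to 4 when 1 animal was left out), 1 fell (0 to 1) and 18 were not called, with a median of 0.09. The 3 that rose, Slc1a3, Ednrb and Mfge8, are also expressed by astrocytes (for Ednrb and Mfge8 log2 fold changes 0.72 ± 0.16 and 0.64 ± 0.12 SE, adjusted p = 0.0147 and 0.00674), and Vim, the filament of radial glia, fell (log2 fold change −0.41 ± 0.11 SE, adjusted p = 0.0317), a call lost without E18.5_WT_449, E18.5_WT_709, E18.5_WT_732, P0_WT_309 or P0_WT_311. Of 14 oligodendrocyte precursor genes 12 were tested, 3 rose (1 to 3 when 1 animal was left out) and 0 fell, with a median of 0.22, and Pdgfra, the receptor that defines these cells, rose (log2 fold change 0.37 ± 0.08 SE, adjusted p = 0.0116). Of 12 genes of maturing oligodendrocytes 9 were tested, 1 rose (Mal, log2 fold change 0.80 ± 0.21 SE, adjusted p = 0.0291) and 1 fell (Ermn, log2 fold change −1.13 ± 0.28 SE, adjusted p = 0.0225). The rise was lost without E18.5_WT_449, E18.5_WT_456, E18.5_WT_732, E18.5_WT_735, P0_WT_309, P0_WT_311 or P0_WT_674. The fall was lost without E18.5_WT_449, P0_WT_309 or P0_WT_674. Mbp of compact myelin was not called (log2 fold change 0.02 ± 0.12 SE, adjusted p = 0.931).

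Microglial genes had a positive median of 0.45, with 2 of 22 called higher (9.09%, near the 7.48% of all genes) and 0 lower. The count depended on the animals. Without E18.5_WT_456 it was 7, without P0_WT_704 2, and without any other animal 0. Trem2, a lipid receptor of microglia, was read at 1.04, 1.92, 0.918, 1.12 and 0.825 CPM at E18.5 and 2.39, 2.40, 2.06 and 1.33 CPM at P0 and C1qc, a complement subunit, at 5.85, 8.95, 4.75, 3.60 and 3.13 CPM at E18.5 and 9.06, 9.16, 8.31 and 6.46 CPM at P0. E18.5_WT_456 overlapped the P0 animals in both genes (log2 fold changes 0.76 ± 0.22 and 0.65 ± 0.19 SE, adjusted p = 0.0435 and 0.048). Of 13 choroid plexus genes 8 were tested and 4 rose, with a median of 1.39, at low levels. The number was 2 without E18.5_WT_449, E18.5_WT_709 or P0_WT_311, and 6 without E18.5_WT_456, where the median was 1.95. Kcne2, a channel subunit of that epithelium, was at 0.111, 0.0750, 0.0633, 0.140 and 0.0989 CPM at E18.5 and 0.625, 0.511, 0.584 and 0.543 CPM at P0 (log2 fold change 2.50 ± 0.30 SE, adjusted p = 0.00182). Ttr, the most abundant transcript of the plexus, was uneven, with 0.111, 1.07, 0.0633, 0 and 0.0989 CPM at E18.5 and 0.602, 1.76, 6.12 and 0.302 CPM at P0, and was not called (log2 fold change 2.97 ± 1.07 SE, adjusted p = 0.0852). Folr1 and Kcnj13 were at or near 0.

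Metallothionein genes, which bind zinc and respond to metals and glucocorticoids, rose at P0. Mt2 was read at 10.3, 9.44, 4.34, 3.74 and 1.29 CPM at E18.5 and 23.5, 26.0, 18.1 and 15.4 CPM at P0, with no overlap between the ages (log2 fold change 1.90 ± 0.30 SE, adjusted p = 0.00446). Mt1 was read at 8.72, 10.4, 5.60, 4.33 and 1.62 CPM at E18.5 and 21.0, 23.4, 16.1 and 14.9 CPM at P0, and did not overlap either (log2 fold change 1.64 ± 0.28 SE, adjusted p = 0.0058). Within E18.5 the batch 1 animals were higher than the batch 3 animals in both genes. The metal response element (TGCACNC, or GNGTGCA on the other strand) occurred 2 times in the window of Mt2 (chr8:94172368-94172617, plus strand) and 1 time in that of Mt1 (chr8:94178839-94179088, plus strand), and in 13.2% of all windows. Both are given with the matches in capitals, because the genes lie next to each other and moved together.
Mt2: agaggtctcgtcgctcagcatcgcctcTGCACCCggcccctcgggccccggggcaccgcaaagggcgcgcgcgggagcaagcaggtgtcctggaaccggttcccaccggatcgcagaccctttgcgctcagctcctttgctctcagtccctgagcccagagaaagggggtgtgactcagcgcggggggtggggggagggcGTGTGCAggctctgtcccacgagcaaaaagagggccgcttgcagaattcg
Mt1: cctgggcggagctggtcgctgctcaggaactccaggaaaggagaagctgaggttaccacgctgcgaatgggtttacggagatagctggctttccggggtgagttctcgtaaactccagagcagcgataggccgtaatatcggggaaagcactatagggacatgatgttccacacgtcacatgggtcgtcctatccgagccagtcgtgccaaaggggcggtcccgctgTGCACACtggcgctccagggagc

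Of 20 genes of the glucocorticoid response 19 were tested, 5 rose and 2 fell, with a median of 0.13. When 1 animal was left out 4 to 6 rose and 1 to 4 fell. Beside the metallothioneins, Pdk4, the kinase that turns cells from glucose to fat oxidation, was read at 0.703, 1.20, 0.696, 0.702 and 0.429 CPM at E18.5 and 2.61, 2.09, 1.72 and 1.66 CPM at P0, all 4 P0 animals being higher (log2 fold change 1.39 ± 0.22 SE, adjusted p = 0.00453). Mertk, a receptor for engulfing apoptotic cells, went from 1.14 ± 0.235 to 3.45 ± 1.26 CPM (log2 fold change 1.51 ± 0.23 SE, adjusted p = 0.00413), and Klf15 rose less (log2 fold change 0.56 ± 0.15 SE, adjusted p = 0.0298). Ddit4 and Arrdc2 fell (log2 fold changes −0.61 ± 0.12 and −0.44 ± 0.13 SE, adjusted p = 0.0102 and 0.0411), and Fkbp5 and Tsc22d3, common targets of the receptor, gave log2 fold changes −0.20 ± 0.07 and −0.32 ± 0.10 SE, adjusted p = 0.0803 and 0.06.

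Of 20 genes of ketone body use and fatty acid oxidation, 4 rose and 4 fell, with a median of 0.08. When 1 animal was left out 3 to 5 rose and 1 to 4 fell. Cpt1a, which admits fatty acids to mitochondria, rose (log2 fold change 0.60 ± 0.12 SE, adjusted p = 0.0103), and Slc16a7, a carrier of ketone bodies and lactate, fell (log2 fold change −1.02 ± 0.19 SE, adjusted p = 0.00812).

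Part of the genes of newborn neurons fell. Of 22 genes of intermediate progenitors and newborn neurons 20 were tested, of which 5 fell, 0 rose and 15 were not called, with a median of −0.43. The number that fell was 2 to 7 in the fits without 1 animal, with 2 without P0_WT_311 and 3 without E18.5_WT_449, E18.5_WT_732 or P0_WT_309. The median was −0.70 in batch 1 and −0.18 in batch 3. Neurog2 (chr3:127633135-127635631, mm10), the proneural factor of cortical progenitors, was read at 20.5, 7.17, 3.89, 5.90 and 3.92 CPM at E18.5 and 5.39, 6.20, 2.64 and 2.02 CPM at P0. E18.5_WT_449 was far above all others, and the fall was present within each batch (log2 fold change −1.11 ± 0.28 SE, adjusted p = 0.0254). Eomes (TBR2), the factor of intermediate progenitors, was read at 34.5, 9.67, 6.05, 11.2 and 3.30 CPM at E18.5 and 12.6, 10.9, 4.78 and 4.498 CPM at P0, with the same animal high, and was not called (log2 fold change −0.73 ± 0.38 SE, adjusted p = 0.211). Igfbpl1, a gene of newborn neurons, was read at 395, 297, 241, 283 and 305 CPM at E18.5 and 146, 126, 179 and 168 CPM at P0 and did not overlap (log2 fold change −0.98 ± 0.15 SE, adjusted p = 0.00388). Insm1 and Nhlh2, transcription factors of newly formed neurons, had log2 fold changes of −0.88 and −0.91 (adjusted p = 0.0102 and 0.0198).

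Of 41 cell cycle genes 4 fell and 0 rose, a share of falls (9.76%) near that of all genes (7.53%). The median was −0.16, with −0.36 in batch 1 and 0.04 in batch 3. Without E18.5_WT_449 or P0_WT_311 2 fell, and without P0_WT_704 6 fell. The 4 were Ccnd1, the cyclin of the first gap phase, Mcm3 of the replication helicase, and Tyms and Rrm2, which make nucleotides. Ccnd1 was read at 33.5, 33.1, 25.9, 26.0 and 27.6 CPM at E18.5 and 17.998, 18.8, 19.9 and 23.3 CPM at P0 (log2 fold change −0.55 ± 0.12 SE, adjusted p = 0.0135). Rrm2 was read at 41.8, 32.8, 29.6, 31.3 and 30.0 CPM at E18.5 and 23.4, 25.5, 26.2 and 22.9 CPM at P0, with E18.5_WT_449 high (log2 fold change −0.44 ± 0.10 SE, adjusted p = 0.0197). Mki67 and Top2a, of late cycle phases, were not called (log2 fold changes −0.20 ± 0.17 and −0.23 ± 0.17 SE, adjusted p = 0.437 and 0.358).

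Genes that place neurons in layers fell in part. Of 14 upper layer genes 5 fell and 0 rose (median −0.37), and of 21 deep layer and subplate genes 4 fell and 0 rose (median −0.24). The counts were 3 to 5 and 1 to 5 when 1 animal was left out, with 1 deep layer gene without E18.5_WT_449 and 2 without P0_WT_674, and 3 upper layer genes without E18.5_WT_449, E18.5_WT_456, E18.5_WT_735, P0_WT_311 or P0_WT_674. The age effect differed between batches for 5 of the 14 upper layer and 9 of the 21 deep layer genes, against 12.5% of all genes. Of the upper layer genes 7 fell and 2 rose in batch 1 alone, and 4 fell and 1 rose in batch 3 alone. Of the deep layer genes 8 fell and 3 rose in batch 1 alone, and 7 fell and 2 rose in batch 3 alone. Sox5, which specifies neurons that project below the cortex, was read at 219, 163, 168, 219.7 and 277 CPM at E18.5 and 139, 136, 132 and 118 CPM at P0 (log2 fold change −0.67 ± 0.15 SE, adjusted p = 0.0159). Tbr1, the layer 6 factor, was called lower with overlapping groups (log2 fold change −0.39 ± 0.12 SE, adjusted p = 0.0469), and Rorb of layer 4 fell (log2 fold change −0.50 ± 0.11 SE, adjusted p = 0.0155), while Bcl11b and Cux2 were not called (log2 fold changes −0.42 ± 0.20 and −0.35 ± 0.11 SE, adjusted p = 0.172 and 0.0571). The dissection differs between the ages in the areas it covers, and its part was not tested. Of 7 genes of frontal areal pattern 0 were called by edgeR and 2 had an unadjusted p under 0.05, and of 9 of caudal and sensory pattern 2 fell (2 to 3 when 1 animal was left out), Bhlhe22 (log2 fold change −0.75 ± 0.16 SE, adjusted p = 0.0117) and Rorb. Both areal lists differed between the batches as well. The frontal list had a median of −0.41 in batch 1 and 0.48 in batch 3, and the caudal and sensory list 0.04 and −0.50.

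Of 28 interneuron genes 7 fell and 0 rose, with a median of −0.10, which was −0.44 in batch 1 and 0.13 in batch 3. Without E18.5_WT_456, 5 rose and 6 fell, and 2 fell without P0_WT_311 and 4 without E18.5_WT_735, P0_WT_309 or P0_WT_674. Reln, secreted by layer 1 neurons, and Cxcr4, a receptor that guides migrating interneurons, were called lower in the fit of all 9 animals (log2 fold changes −0.60 ± 0.10 and −0.66 ± 0.15 SE, adjusted p = 0.00516 and 0.018).

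Of 40 genes of axon growth and guidance 11 fell and 2 rose, with a median of −0.17, and 4 to 11 fell when 1 animal was left out. The number was 4 without E18.5_WT_449 or E18.5_WT_735, 5 without E18.5_WT_732 or P0_WT_311, 6 without P0_WT_309 or P0_WT_674 and 7 without E18.5_WT_709. Draxin, a repellent that steers commissural axons, was read at 192, 159.5, 169, 203 and 197 CPM at E18.5 and 121, 103, 99.3 and 84.1 CPM at P0, with all P0 animals lower (log2 fold change −0.86 ± 0.12 SE, adjusted p = 0.00245). Cntn2, an adhesion molecule of growing axons, was read at 1058, 695.04, 944, 1229 and 1405 CPM at E18.5 and 534, 375, 806 and 537 CPM at P0. The P0 animal P0_WT_674 lay above E18.5_WT_456 of the other batch (log2 fold change −0.88 ± 0.18 SE, adjusted p = 0.0111). Robo2, a SLIT receptor, fell (log2 fold change −0.65 ± 0.12 SE, adjusted p = 0.00835), whereas the ligands Slit2 and Slit3 rose (log2 fold changes 0.64 ± 0.14 and 1.30 ± 0.33 SE, adjusted p = 0.0143 and 0.024). Slit3 was read at 6.52, 3.10, 2.34, 2.33 and 0.825 CPM at E18.5 and 16.3, 13.4, 4.61 and 2.69 CPM at P0, the P0 animals of batch 1 lying well above those of batch 3. The tubulins Tubb3 and Tuba1a of growing neurites fell by less (log2 fold changes −0.43 ± 0.08 and −0.34 ± 0.09 SE, adjusted p = 0.00838 and 0.0309).

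Presynaptic genes rose in small numbers, and the postsynaptic list had a share of rises near that of all genes (7.48%). Of 35 presynaptic genes 6 rose and 0 fell (median 0.10), and of 40 genes of glutamate receptors and the postsynapse 4 rose and 2 fell (median −0.01). The postsynaptic falls numbered 0 to 2 when 1 animal was left out, with 0 without E18.5_WT_449, E18.5_WT_732, E18.5_WT_735, P0_WT_311 or P0_WT_704. Rises numbered 3 to 8 and 1 to 7, with 3 presynaptic genes without E18.5_WT_449 or P0_WT_674, and with 7 genes of the other list without P0_WT_704 and 1 without P0_WT_674. Vamp1, a vesicle protein of mature terminals, was read at 5.52, 6.496, 9.08, 6.24 and 5.77 CPM at E18.5 and 14.6, 12.4, 13.4 and 13.5 CPM at P0, with no overlap (log2 fold change 1.04 ± 0.15 SE, adjusted p = 0.00313). Camk2a, the postsynaptic kinase whose level climbs as synapses mature, was read at 61.9, 92.3, 58.4, 61.1 and 29.2 CPM at E18.5 and 176, 185, 96.0 and 76.9 CPM at P0. Batch 1 gave the higher P0 values, and the gene was higher at P0 within both batches (log2 fold change 0.999 ± 0.21 SE, adjusted p = 0.0122). Syn2 and Syp, of synaptic vesicles, rose (log2 fold changes 0.62 ± 0.16 and 0.33 ± 0.07 SE, adjusted p = 0.0256 and 0.0131).

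Some pairs of genes exchange places as the cortex matures, an early form giving way to a late one. Grin2b, the early NMDA receptor subunit, was called lower (log2 fold change −0.36 ± 0.11 SE, adjusted p = 0.0491), and Grin2a, the late one, was positive without passing the threshold (log2 fold change 0.38 ± 0.12 SE, adjusted p = 0.0521). Slc12a5, the chloride exporter that makes GABA inhibitory, was read at 57.7, 90.9, 74.2, 80.2 and 55.9 CPM at E18.5 and 125, 147, 93.6 and 82.0 CPM at P0 and rose (log2 fold change 0.58 ± 0.17 SE, adjusted p = 0.042). The importer Slc12a2 had log2 fold change 0.25 ± 0.11 SE, adjusted p = 0.135. Scn1a, the later sodium channel, rose (log2 fold change 0.64 ± 0.09 SE, adjusted p = 0.00261), and the embryonic Scn3a was positive as well (log2 fold change 0.27 ± 0.11 SE, adjusted p = 0.13). Of the early members, Grin2b was called lower, Slc12a2 and Scn3a were not called, and Gabra5, a GABA-A receptor subunit, rose, against the order of early and late forms (log2 fold change 0.44 ± 0.12 SE, adjusted p = 0.0328). The difference between the members of a pair was not tested.

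The levels within these pairs, in mean CPM per kb of exon, showed how far each had come. Grin2b stood at 17.7 at E18.5 and 13.7 at P0 and Grin2a at 0.478 at E18.5 and 0.611 at P0. Slc12a5 stood at 9.64 at E18.5 and 15.0 at P0 and Slc12a2 at 3.08 at E18.5 and 3.78 at P0. Scn3a stood at 10.7 at E18.5 and 12.9 at P0 and Scn1a at 1.98 at E18.5 and 3.12 at P0, so the early channel remained the more abundant of the pair at both ages.

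Of 20 genes of GABA receptors and chloride transport 4 rose and 0 fell (median 0.23, 1 to 6 rising when 1 animal was left out), the GABA transporter Slc6a11 among them (log2 fold change 0.61 ± 0.15 SE, adjusted p = 0.0226). Of 10 sodium channel genes 2 rose and 0 fell (median 0.25, 1 to 3 rising when 1 animal was left out). Of 39 potassium and HCN channel genes 6 rose and 4 fell (median 0.09), with 1 rising without E18.5_WT_449 or P0_WT_311, 2 without E18.5_WT_735 or P0_WT_674 and 3 without E18.5_WT_456 or E18.5_WT_709. Kcnk9, a leak channel, had the largest rise of these (log2 fold change 1.21 ± 0.29 SE, adjusted p = 0.0208) and Kcnj11, a channel gated by ATP, the largest fall (log2 fold change −0.67 ± 0.14 SE, adjusted p = 0.0107). Of 25 immediate early genes, which neuronal activity induces within minutes, 24 were tested, 6 rose and 0 fell (median 0.18). The list did not move as a whole, with 13 positive and 11 negative log2 fold changes. Its median was 0.36 in batch 1 and −0.07 in batch 3. With sex as covariate 3 rose and 2 fell, and with batch and sex 7 rose and 3 fell. Fos was read at 2.18, 1.62, 1.08, 1.46 and 0.429 CPM at E18.5 and 4.75, 3.38, 2.42 and 2.26 CPM at P0, Egr2 at 0.537, 0.425, 0.570, 0.562 and 0.165 CPM at E18.5 and 1.85, 1.17, 3.25 and 1.81 CPM at P0, and neither overlapped (log2 fold changes 1.16 ± 0.27 and 2.11 ± 0.35 SE, adjusted p = 0.0197 and 0.00496). When 1 animal was left out 2 to 8 of the list rose and 0 to 2 fell, with 2 rising without P0_WT_674.

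**Figure D3:**
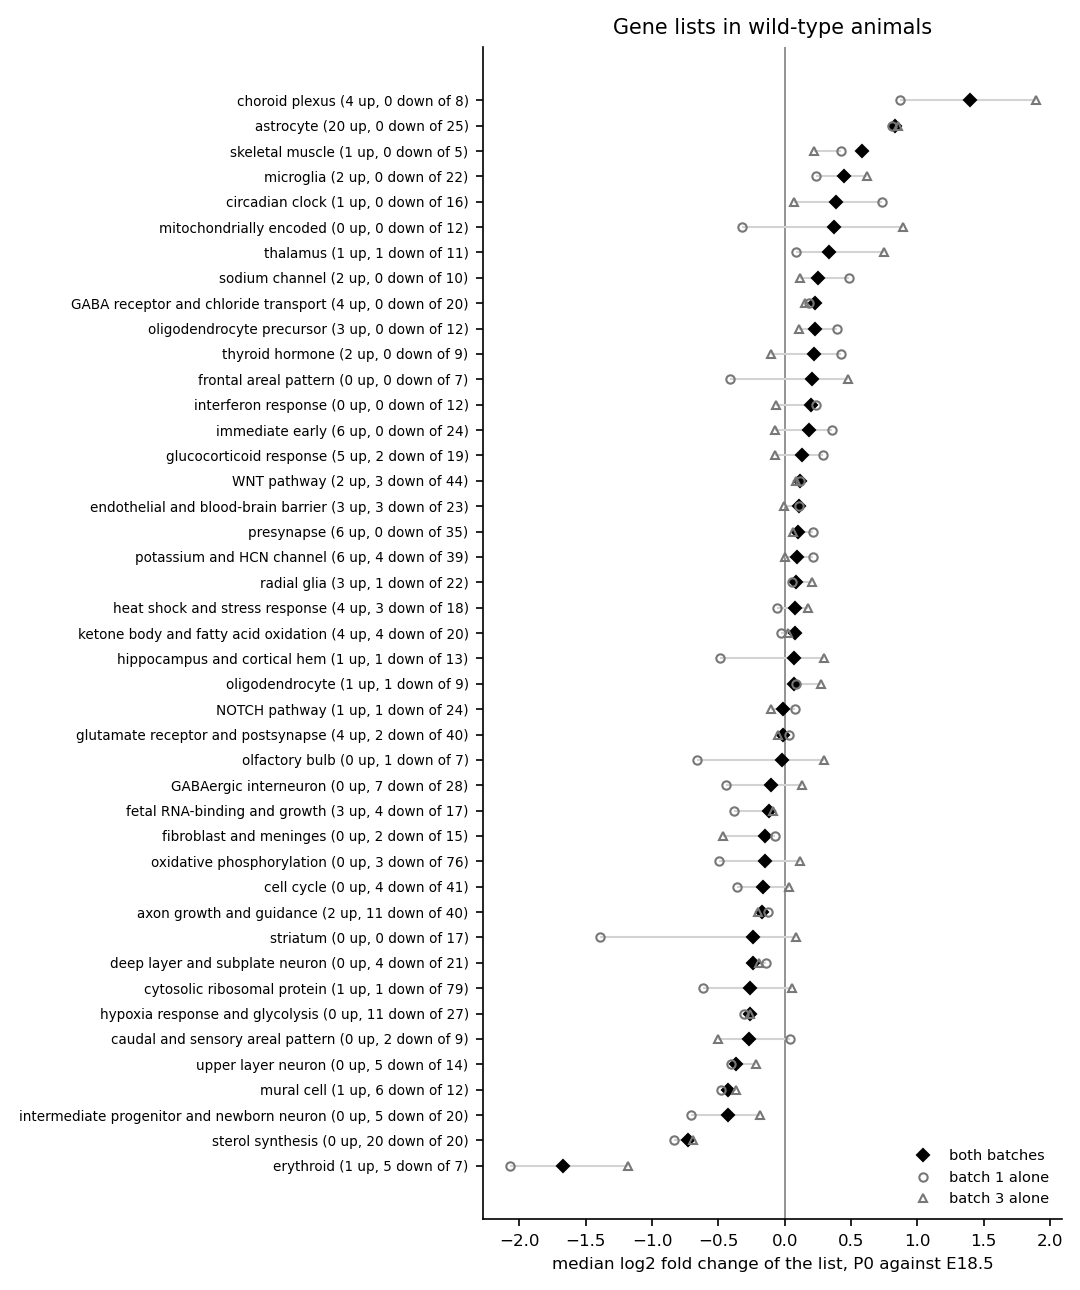
Median log2 fold change of P0 over E18.5 (horizontal axis) for each of 43 gene lists (vertical axis, with the numbers called and tested), with diamonds for all animals, circles for batch 1 and triangles for batch 3. The sterol and astrocyte lists lie at −0.73 and 0.83 with both batches close together, while the ribosomal protein list lies at −0.62 in batch 1 and 0.05 in batch 3.

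Genes of the vessel wall fell in part. Of 13 mural cell genes 12 were tested, of which 6 fell and 1 rose, with a median of −0.43. When 1 animal was left out 2 to 5 fell, with 2 without E18.5_WT_735 or P0_WT_311, 5 without P0_WT_674 and 3 without each of the others. Higd1b, a marker of pericytes, was read at 3.55, 4.35, 4.59, 3.26 and 3.86 CPM at E18.5 and 1.85, 1.64, 2.33 and 2.05 CPM at P0, without overlap (log2 fold change −0.995 ± 0.17 SE, adjusted p = 0.00516), and Rgs5 fell less (log2 fold change −0.53 ± 0.15 SE, adjusted p = 0.0409). Acta2, smooth muscle actin, was low at both ages and fell (log2 fold change −1.13 ± 0.33 SE, adjusted p = 0.0427), whereas Myh11, the myosin of the same cells, rose from 0.403 ± 0.188 to 1.52 ± 0.367 CPM (log2 fold change 2.02 ± 0.33 SE, adjusted p = 0.00497). Of 24 endothelial and barrier genes 23 were tested, 3 rose and 3 fell (median 0.11), and 1 to 2 rose and 0 to 3 fell when 1 animal was left out. Abcb1a, the drug efflux pump of the barrier, and Slc7a5, its carrier of large amino acids, rose (log2 fold changes 0.75 ± 0.19 and 0.58 ± 0.08 SE, adjusted p = 0.0231 and 0.00266). Of 16 genes of fibroblasts and meninges 15 were tested, 2 fell (1 to 2 when 1 animal was left out) and 0 rose, Col3a1 and Igf2 (log2 fold changes −1.03 ± 0.26 and −0.67 ± 0.13 SE, adjusted p = 0.0249 and 0.0103).

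Of 19 fetal RNA-binding and growth genes 17 were tested, 4 fell (3 to 5 when 1 animal was left out) and 3 rose (2 to 3), with a median of −0.12, and imprinted genes stood on both sides. Cdkn1c, an imprinted inhibitor of cell division, was read at 67.6, 61.6, 72.5, 67.1 and 82.5 CPM at E18.5 and 44.3, 40.0, 31.3 and 32.0 CPM at P0 (log2 fold change −0.94 ± 0.13 SE, adjusted p = 0.00252). Mest fell too (log2 fold change −0.73 ± 0.12 SE, adjusted p = 0.00516). Peg3 was read at 91.5, 105, 82.0, 105 and 74.6 CPM at E18.5 and 189, 241, 177 and 142 CPM at P0 and Meg3, a noncoding RNA, at 624, 703, 1156, 1339 and 964 CPM at E18.5 and 2057, 1992, 2021 and 1425 CPM at P0, and both rose without overlap (log2 fold changes 0.99 ± 0.13 and 1.05 ± 0.20 SE, adjusted p = 0.00215 and 0.00872). Lin28b, which blocks maturation of let-7 and is best known as a fetal gene, rose rather than fell (log2 fold change 0.75 ± 0.21 SE, adjusted p = 0.0404), while Igf2bp3 fell (log2 fold change −0.62 ± 0.17 SE, adjusted p = 0.033).

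Of 24 NOTCH pathway genes 1 rose and 1 fell (median −0.01, 0 to 1 rising and 0 to 2 falling when 1 animal was left out), Lfng and Mfng, both of which add sugars to the receptor (log2 fold changes 0.47 ± 0.13 and −0.55 ± 0.16 SE, adjusted p = 0.0373 and 0.0464). Notch1, Hes1 and Dll1, a receptor, an effector and a ligand, were not called (adjusted p = 0.175, 0.728 and 0.582). Of 46 WNT pathway genes 44 were tested, 2 rose and 3 fell (median 0.11, 0 to 3 falling when 1 animal was left out), among them Lef1, a transcription factor of the pathway (log2 fold change −0.61 ± 0.16 SE, adjusted p = 0.0308), and Tcf7l1, a repressing relative (log2 fold change 0.84 ± 0.14 SE, adjusted p = 0.00489). Of 18 heat shock and stress genes 4 rose and 3 fell (median 0.08, 4 rising and 1 to 3 falling when 1 animal was left out). Hspa8, the constitutive chaperone, was read at 2115, 1558, 1979, 1770.2 and 2574 CPM at E18.5 and 846, 1007, 1388 and 1509 CPM at P0 (log2 fold change −0.74 ± 0.15 SE, adjusted p = 0.00952). Slc7a11 and Sesn2, targets of the amino acid stress response, rose (log2 fold changes 1.504 ± 0.31 and 0.97 ± 0.11 SE, adjusted p = 0.0114 and 0.00168). Of 12 interferon response genes 0 were called by edgeR, of which 3 had an unadjusted p under 0.05.

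The largest changes outside these lists included genes with no shared role. Nanos2, a germ cell RNA-binding protein, was read at 1.06, 0.900, 1.11, 1.46 and 1.35 CPM at E18.5 and 6.10, 3.96, 4.81 and 4.44 CPM at P0 (log2 fold change 2.07 ± 0.20 SE, adjusted p = 0.000753). Cacng1, a calcium channel subunit known from skeletal muscle, was read at 1.22, 1.47, 1.49, 1.74 and 1.02 CPM at E18.5 and 6.12, 3.84, 5.45 and 6.34 CPM at P0 (log2 fold change 1.97 ± 0.20 SE, adjusted p = 0.00099). Neither overlapped between the ages, and both lay below 7 CPM in every animal. Gli1, the transcriptional target that reads out hedgehog signalling, was read at 1.93, 1.22, 2.37, 2.11 and 1.06 CPM at E18.5 and 7.98, 9.06, 4.48 and 5.04 CPM at P0 (log2 fold change 1.87 ± 0.28 SE, adjusted p = 0.00385). Pla2g7, an acetylhydrolase that cleaves platelet-activating factor, was read at 2.44, 6.12, 4.81, 3.40 and 1.62 CPM at E18.5 and 26.0, 27.0, 12.1 and 5.13 CPM at P0, and P0_WT_704 overlapped the E18.5 animals (log2 fold change 1.99 ± 0.41 SE, adjusted p = 0.0113). Snhg11 (chr2:158375638-158386151, mm10), a noncoding RNA of neurons, was the most abundant of the 14 largest rises, at 60.1, 136, 92.1, 108 and 41.1 CPM at E18.5 and 305.7, 459.4, 307 and 222 CPM at P0 (log2 fold change 1.83 ± 0.30 SE, adjusted p = 0.00485).

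Among the largest falls, Ly6g6e (chr17:35076902-35078804, mm10) was read at 6.44, 6.72, 8.67, 7.22 and 12.04 CPM at E18.5 and 1.85, 1.46, 2.78 and 2.48 CPM at P0, with all P0 animals far below (log2 fold change −1.90 ± 0.18 SE, adjusted p = 0.000688). Sdf2l1, a protein of the endoplasmic reticulum, was read at 7.44, 9.29, 6.81, 7.42 and 8.18 CPM at E18.5 and 2.54, 2.91, 2.03 and 3.74 CPM at P0 (log2 fold change −1.49 ± 0.19 SE, adjusted p = 0.0021). Nts, the precursor of neurotensin, was read at 45.7, 14.6, 25.0, 23.2 and 10.6 CPM at E18.5 and 7.11, 10.002, 9.53 and 6.58 CPM at P0, and the E18.5 animals themselves were spread widely (log2 fold change −1.53 ± 0.35 SE, adjusted p = 0.0173). Msx3, a homeobox gene known from the dorsal spinal cord, went from 6.28 ± 3.30 to 2.02 ± 0.458 CPM (log2 fold change −1.46 ± 0.31 SE, adjusted p = 0.0135).

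Myt1l, the gene the study altered in its other groups, was intact in these animals. Myt1l was read at 453, 381, 464, 519 and 537 CPM at E18.5 and 416, 419.7, 454.9 and 406 CPM at P0, and the groups overlapped (log2 fold change −0.13 ± 0.09 SE, adjusted p = 0.358). Its relatives Myt1 and St18 were not called either (log2 fold changes −0.01 ± 0.10 and 0.13 ± 0.22 SE, adjusted p = 0.956 and 0.715). In mean CPM per kb of exon Myt1l stood at 33.6 at E18.5 and 30.3 at P0, Myt1 at 5.02 at E18.5 and 5.02 at P0 and St18 at 0.596 at E18.5 and 0.696 at P0.

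The age effect was not the same in both batches. The test of the difference called 2186 of 17515 genes (12.5%), of which 979 had the higher effect in batch 3 (5.59%) and 1207 the lower (6.89%). Without P0_WT_704 the count was 645, without P0_WT_309 834, without E18.5_WT_732 916 and without E18.5_WT_456 966. Batch 1 compared females at E18.5 with males at P0 and batch 3 compared males with females. Batch, sex, and single animals with their dissection therefore cannot be told apart in these genes.

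Some groups of genes moved in 1 batch. Of 83 cytosolic ribosomal protein genes 79 were tested, 1 rose and 1 fell, with a median of −0.26, but the median was −0.62 in batch 1 and 0.05 in batch 3, and the difference was called for 68 of the 79 (against 12.5% of all genes). Rpl23a of the large subunit was read at 430.5, 466, 427, 369 and 389 CPM at E18.5 and 279, 255, 353 and 395 CPM at P0, and its difference (batch 3 minus batch 1) was 0.67 ± 0.14 on the log2 scale (SE, adjusted p = 0.0137). Without P0_WT_704, 38 of the list fell, and 40 fell in the fit of all animals with sex in place of batch as covariate and 60 with batch and sex. Of 76 nuclear genes of oxidative phosphorylation 3 fell (2 to 6 when 1 animal was left out, with 6 without P0_WT_704) and 0 rose, while 14 fell with sex as covariate and 33 with batch and sex. Their median was −0.50 in batch 1 and 0.11 in batch 3, and the difference was called for 47. The 12 tested of 13 mitochondrially encoded genes had medians of −0.33 and 0.89, with 0 called by edgeR in the fit of both batches, 6 differing between batches and 0 at an unadjusted p under 0.05. The 2 P0 animals of batch 1 also had the deepest libraries. With their reads drawn down to 35.1 Mreads, the difference between batches was called for 2103 genes.

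Clock and striatal genes differed likewise. The 16 circadian clock genes had a median of 0.73 in batch 1 and 0.07 in batch 3, with 10 differing between batches, and Cry1, a repressor of the clock, was the member called in the fit of all animals (log2 fold change 0.43 ± 0.09 SE, adjusted p = 0.0135), where 8 were called without P0_WT_704, 2 without E18.5_WT_732 and 0 by edgeR without E18.5_WT_449. With sex as covariate 7 were called and with batch and sex 8. The labels used here give no hour of collection. The 17 striatal genes had a median of −1.39 in batch 1 and 0.08 in batch 3, with 6 differing. In the fit of all animals 0 were called by edgeR, of which 3 had an unadjusted p under 0.05, and without E18.5_WT_456, the animal high in Gbx2 and Tcf7l2, 4 rose and 0 fell.

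Genes of other regions and tissues that a dissection may include were called in small numbers. Of 12 thalamic genes 11 were tested, 1 rose and 1 fell (median 0.34), the vesicular glutamate transporter Slc17a6 (log2 fold change 0.41 ± 0.11 SE, adjusted p = 0.0287) and the signalling regulator Rgs16 (log2 fold change −0.50 ± 0.10 SE, adjusted p = 0.011). Of 15 genes of the hippocampus and cortical hem 13 were tested, and 1 rose and 1 fell (median 0.07). The riser was Rgs14, a gene of hippocampal area CA2, read at 0.629, 0.974, 0.538, 0.309 and 0.0989 CPM at E18.5 and 3.16, 4.11, 1.56 and 0.875 CPM at P0, with P0_WT_704 among the E18.5 values (log2 fold change 2.08 ± 0.34 SE, adjusted p = 0.00485), and the faller was Lef1. Of 8 olfactory bulb genes 7 were tested and 1 fell, Tbr1, which deep layers express as well (median −0.02). Of 10 skeletal muscle genes 5 were tested and 1 rose, Acta1 (log2 fold change 0.71 ± 0.19 SE, adjusted p = 0.0311), with Ckm near 0. Of 9 genes of thyroid hormone action 2 rose and 0 fell (median 0.22). Dio3, which inactivates the hormone, was read at 0.0370, 1.37, 0.0317, 0.112 and 0.0330 CPM at E18.5 and 3.20, 3.59, 0.278 and 1.72 CPM at P0, with E18.5_WT_456 among the P0 values (log2 fold change 2.84 ± 0.77 SE, adjusted p = 0.0331), and Rasd2, a striatal target of the hormone, rose (log2 fold change 0.75 ± 0.19 SE, adjusted p = 0.0239). When 1 animal was left out the number that rose was 0 to 2 for thalamic, 1 to 3 for hippocampal, 0 to 1 for muscle and 0 to 2 for thyroid genes, and the number that fell was 1 to 2 for thalamic, 0 to 2 for hippocampal and 0 to 1 for olfactory bulb genes.

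The genes with the smallest p of the difference, sex-linked genes left out, were led by Met (chr6:17463800-17573980, mm10), a receptor for hepatocyte growth factor that marks cortical areas. It was read at 23.6, 18.1, 31.5, 33.6 and 39.2 CPM at E18.5 and 49.8, 60.6, 12.8 and 14.04 CPM at P0. It was higher at P0 in batch 1 and lower at P0 in batch 3, with a difference (batch 3 minus batch 1) of −2.77 ± 0.22 on the log2 scale (SE, adjusted p = 9.23e-05). Nr2f1, which patterns caudal cortex, was read at 108, 90.8, 95.4, 103 and 96.6 CPM at E18.5 and 205, 245, 67.1 and 68.0 CPM at P0 and turned the same way, with −1.71 ± 0.16 on the log2 scale (SE, adjusted p = 0.000292). Cacna1g, a T-type calcium channel, and Rnf112, a ubiquitin ligase of the brain, gave −2.02 ± 0.19 on the log2 scale (SE, adjusted p = 0.000295), and −1.40 ± 0.13 on the log2 scale (SE, adjusted p = 0.000242). mt-Tw, a mitochondrial tRNA, gave 3.56 ± 0.30 on the log2 scale (SE, adjusted p = 0.000165).

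**Figure D4:**
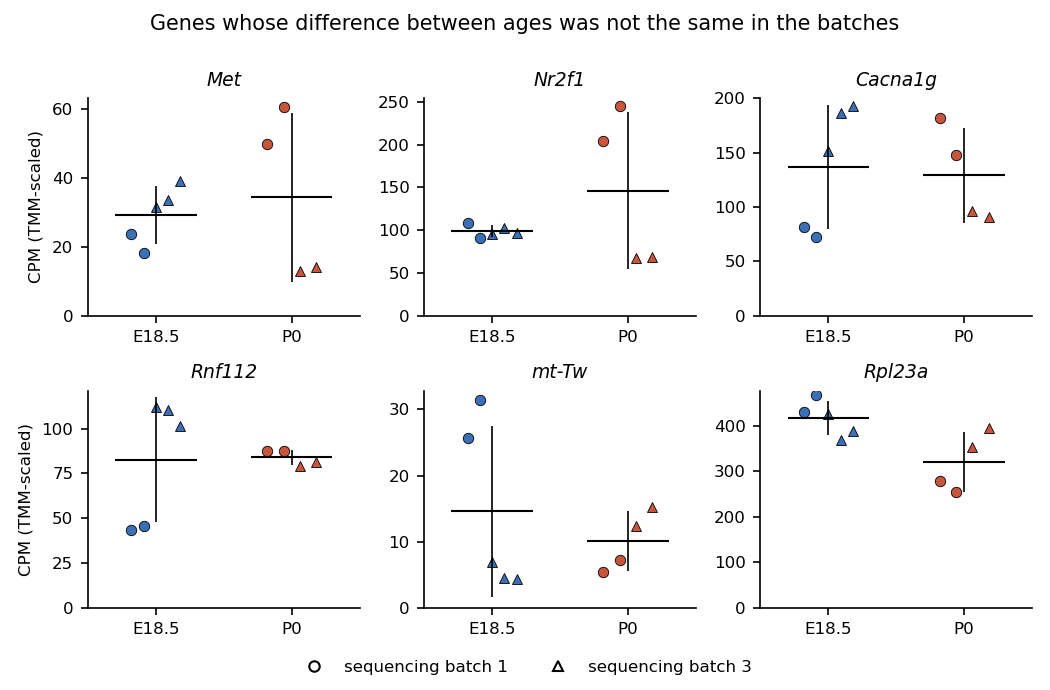
Levels in CPM (vertical axes, linear from 0) of 6 genes in the 5 E18.5 and 4 P0 wild-type animals, with circles for batch 1, triangles for batch 3, and lines for the mean ± SD. For Met and Nr2f1 the circles rise from E18.5 to P0 and the triangles fall.

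The same comparison was made in HET animals, 6 at each age, in which sex and batch were mixed within ages and none of which is a wild-type animal. Of 17621 genes 5270 were called (29.9%), with 2542 higher (14.4%) and 2728 lower (15.5%) at P0. Of the 2629 genes called in wild-type animals 2596 were tested in HET animals, of which 2551 (98.27%) had the same direction and 1800 (69.34%) were called in that direction. None of the 2596 was called in the opposite direction (0). The share with the same direction over all genes tested was not computed. The HET animals also differed in dissection between the ages, as the wild-type animals did.

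**Figure D5:**
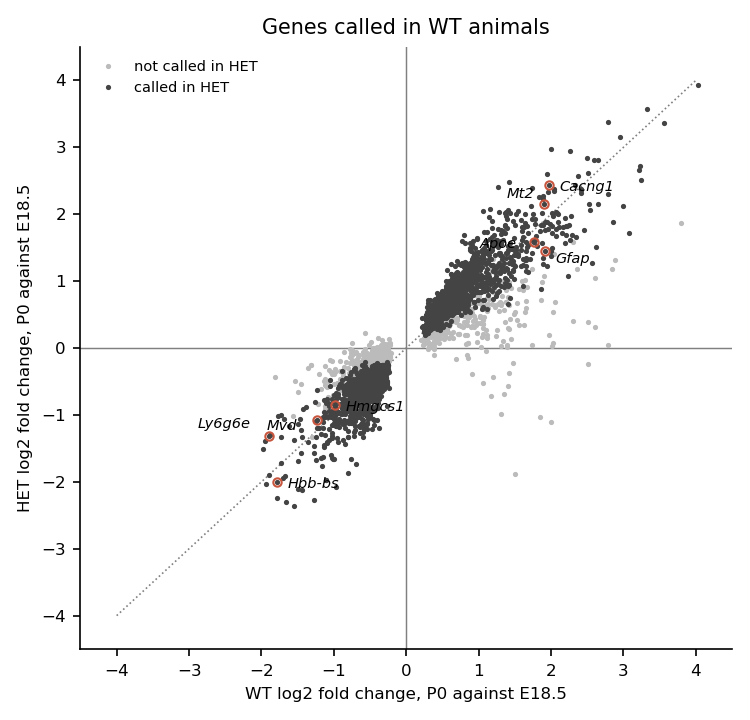
Log2 fold change of P0 over E18.5 in wild-type animals (horizontal axis) and in HET animals (vertical axis) for the 2596 genes called in wild-type animals and tested in both, with genes called in HET animals in dark grey, 8 named genes ringed, and a dotted line where both are equal. Of the points 2551 lie in the lower left or upper right quadrant.

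In HET animals the sterol list had a median of −0.74 with 16 of 20 called lower (15.5% of all genes), the astrocyte list 0.82 with 22 of 25 called higher (14.4% of all genes), and the erythroid list −1.91 with 5 called lower and 1 higher. The hypoxia and glycolysis list had −0.22 with 10 called lower and 2 higher, where 0 were higher in wild-type animals. Ribosomal protein genes had a median of −0.09 with 1 called higher and 1 lower. Choroid plexus genes, positive in wild-type animals, had a median of −0.27 with 0 called by edgeR. Mural cell genes, of which 6 fell in wild-type animals, had a median of −0.08 with 1 called lower and 1 higher, and interneuron genes, of which 7 fell and 0 rose in wild-type animals, had 0.16 with 4 called lower and 6 higher. The median had another sign in HET than in wild-type animals in 7 of the 43 lists. Mvd and Hmgcs1 fell (log2 fold changes −1.07 ± 0.16 and −0.85 ± 0.10 SE, adjusted p = 0.000597 and 0.000189), Apoe rose (log2 fold change 1.58 ± 0.29 SE, adjusted p = 0.00224), Gfap and Mt2 rose (log2 fold changes 1.45 ± 0.28 and 2.15 ± 0.27 SE, adjusted p = 0.00269 and 0.000308), and Hbb-bs fell (log2 fold change −2.003 ± 0.24 SE, adjusted p = 0.000231). Msx3 and Nts, among the largest falls of the wild-type animals, were not called there (log2 fold changes −0.54 ± 0.33 and −0.50 ± 0.25 SE, adjusted p = 0.228 and 0.159).

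Whether any gene changed differently in wild-type and mutant animals was tested in 1 fit of the 32 animals of both ages and all genotypes. For HET against wild-type animals 0 of 19047 genes (0%) passed by edgeR, with 1449 at an unadjusted p under 0.05 and 1 passing by DESeq2. For animals with both alleles mutated (HOM) 0 of 19047 (0%) passed by edgeR, with 986 at an unadjusted p under 0.05 and 0 passing by DESeq2. Without a filter on low counts 238 and 185 passed. No gene is therefore called particular to wild-type animals.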

How the data were processed

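Libraries were made by the dUTP method from TRIzol-extracted RNA, sequenced as paired ends and mapped to mm10 with STAR by the authors. The authors deposited raw counts per gene and library for 55483 genes, with gene coordinates and exon lengths. How and with which annotation and strand setting reads were counted is not given in the sources used here, so antisense pairs of genes may share reads. The authors' normalised counts and their DESeq2 comparisons between genotypes were not used. Counts of the libraries of an animal were summed, since chi-square over its degrees of freedom was 1.20 to 1.33 for 7 such pairs and 4.77 to 65.4 for 53 pairs from different animals of an age. Depth was 31.6 to 145 Mreads per animal.

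Tests were made in R 4.3.3 with edgeR 4.0.16 (quasi-likelihood F test, TMM, the tool's filter on low counts with age as group, sequencing batch as covariate, 2-sided, Benjamini-Hochberg adjustment over all genes tested, threshold 0.05) after a check on simulated data. The HET fit and the fit of all genotypes used batch and sex as covariates. Members, gene lists and tests were chosen with earlier results of these data known. Genes named were Myt1l, Myt1 and St18, the 14 largest rises and falls among genes called separated within both batches and with a mean log2 CPM no lower than 1, the 4 smallest p of each list, 4 developmental pairs, and the 5 smallest p of each difference. Of the 210 genes so chosen 108 are described, and 41 other genes were named after their values were seen. A few of the chosen genes are not reported here. Promoter windows were those of RefSeq (GRCm38.p6, the assembly of mm10), matched by symbol. Alternatives were another scaling, DESeq2 1.42.0, no filter, other covariates, single batches, all genotypes in 1 fit, 1 library per animal, thinned counts, and each animal left out.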

Additional observations from a re-analysis of the deposited data

Results flagged for a closer look

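In groups of 4 or 5 animals, 1 animal stood apart from the rest of its age by Dixon's criterion in 20 of 298 gene and age groups. These groups were 149 genes at both ages, and 19 of the flags were on the high side. Chance alone would give about 1 in 20 groups, so single flags are descriptions only. The flags were not spread evenly over the animals, and the reason was not tested. No other animal had more than 3 of them, whereas E18.5_WT_456 accounted for 9. It was high for the thalamic genes Gbx2 (4.10 CPM) and Tcf7l2 (16.9 CPM), for Ttr of the choroid plexus (1.07 CPM), for Agt (0.800 CPM), Itih3 (0.575 CPM) and Ednrb (36.3 CPM) of glia, for Trem2 of microglia (1.92 CPM), for Slc7a11 (2.85 CPM) and for Dio3 (1.37 CPM). E18.5_WT_449 was high for Neurog2 (20.5 CPM) and Eomes (34.5 CPM) of progenitors and for Rrm2 (41.8 CPM).

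The other flags were spread over single animals. They were Flt1 in E18.5_WT_732 (31.3 CPM), Rgs16 in E18.5_WT_735 (29.9 CPM), Vamp1 in E18.5_WT_709 (9.08 CPM), Klf15 (9.31 CPM), Lfng (16.7 CPM) and Scn3a (192 CPM) in P0_WT_311, and Hmgcs1 in P0_WT_674 (467 CPM), all high, and Meg3 in P0_WT_704 (1425 CPM), low.

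The difference between ages was not the same in the batches for 2186 genes, and batch cannot be told apart from sex there. The effect in batch 3 minus that in batch 1 was −2.77 for Met, 3.56 for mt-Tw, −1.40 for Rnf112, −1.71 for Nr2f1 and −2.02 for Cacna1g on the log2 scale.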

How the results depend on the processing

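The 2629 calls became 2624 with DESeq2 size factors and 3724 with the DESeq2 test, of which 2601 and 2598 were among the 2629. They became 4187 without a filter on low counts, 5101 with batch and sex as covariates, 1608 without a covariate, 4420 in batch 1 alone, 2101 in batch 3 alone, and 1293 to 3503 when 1 animal was left out (1293 without E18.5_WT_449, 1660 without E18.5_WT_735, 1665 without P0_WT_309, 1483 without P0_WT_311, 1582 without P0_WT_674). Genes that differed between batches numbered 645 to 2738 without 1 animal (645 without P0_WT_704, 834 without P0_WT_309, 916 without E18.5_WT_732, 966 without E18.5_WT_456, 1324 without E18.5_WT_735). For the difference of HET from wild-type animals 1 gene passed with DESeq2 and 238 without the filter, and for HOM 185 without the filter. The causes were not tested. Of 149 genes described 122 were called, and over 2439 values of these under 20 alternatives 0 changed direction, 2013 kept the threshold, and 52 genes passed under every alternative that gave a value. These 122 genes were called in the same animals that the alternatives refit, so the lack of reversals is no independent test. Of the genes not called, some passed with the opposite sign in 1 batch: Met in batch 1 (1.40), and Cacna1g (−0.92), Nr2f1 (−0.54), Rnf112 (−0.43) and mt-Tw (1.39) in batch 3. Of 860 list medians 67 moved by more than the spread between animals, 24 of them in batch 1 alone and 19 in batch 3 alone. No paired analysis was possible because the replicate numbers in the labels name the libraries of 1 animal, which were summed, and pair no animals between the ages. The 2 deepest animals were of 1 age, batch and sex, and 4 animals against 5 limit what small differences can be called.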
